A study of Mus musculus with 6 samples.

Results

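The endothelial identity genes described here are 10 genes by which vascular endothelial cells are commonly recognized, namely *Kdr*, *Flt1*, *Tek*, *Tie1*, *Eng*, *Pecam1*, *Cdh5*, *Emcn*, *Vwf*, and *Egfl7*. They were chosen by name, with earlier results of these data known, and all 10 were found among the 56923 genes of the count table, where all 10 were among the 17212 genes that passed the filter on low counts. RNA was sequenced from the left ventricles (LVs) of mice carrying an *Lztr1* missense mutation and of their WT controls. The sample labels name the tissue only as heart, whereas the study's methods name it as PBS-perfused LV. The Lztr1 R409C/+ group held 3 mice, heterozygous for a germline knock-in of the R409C substitution, and the WT group held 3 Lztr1 +/+ mice. All mice were 12 weeks of age, and the methods describe male animals of a line backcrossed to C57BL/6J. The mutation was present in every cell type of the animal, so that the comparison was one of whole LV tissue from 1 knock-in allele and not of an endothelial mutation. LZTR1 is an adaptor of a ubiquitin ligase that acts on RAS family proteins, and mutations in its gene are a cause of Noonan syndrome.

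Endothelial cells line blood vessels and the inner surface of the heart, and in the ventricle most of them belong to the capillaries between the cardiomyocytes. Their identity genes fall into a few roles. KDR and FLT1 are receptors for vascular endothelial growth factors, TEK and TIE1 form the angiopoietin receptor system, and endoglin, the product of *Eng*, is a co-receptor for BMP9 and TGF-β. PECAM1 and VE-cadherin, the product of *Cdh5*, hold neighbouring cells together at their junctions. Endomucin, the product of *Emcn*, is a sialoglycoprotein of the cell surface, von Willebrand factor is secreted to bind platelets, and EGFL7 is a secreted protein of the vessel wall. In whole tissue, fewer endothelial cells and less of an RNA per cell cannot be told apart.

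Total counts ranged from 66130887 to 72641124 per mouse, and 3 counts, taken as the floor of detection, corresponded to between 0.0317 and 0.0541 CPM, the count scaled to library size. The endothelial identity genes lay far above this floor, with at least 1998 counts for every gene in every mouse. Libraries differed in their share of mitochondrially encoded RNA, which was lowest in WT replicate 3 at 13.8%, highest in Lztr1 R409C/+ replicate 1 at 45.4%, and between 29.7% and 37.3% in the other 4 mice. These 2 libraries stood apart, and the log2 fold changes of the 10 genes and the median of each gene list are also given without both of them. The knock-in changes 1 codon and does not remove the gene, so gene counts do not check the genotype labels. Nothing in the sources used here says which mice shared a batch.

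None of the 10 genes passed the threshold of an adjusted p of 0.05 in the edgeR quasi-likelihood F test, in which 7 of the 17212 genes tested passed it, or 0.0407% (0.0349% higher and 0.00581% lower in Lztr1 R409C/+ mice). The counts of called endothelial identity genes were also 0 with DESeq2, which called 0.872% of the genes it tested, and with the exact test of edgeR, which called 0.813%. At an unadjusted p under 0.05 there was 1 gene, *Emcn*, with each of these 3 tools, higher in Lztr1 R409C/+ mice, against 8.63% of all genes tested by the quasi-likelihood test (5.77% higher and 2.86% lower). Of the 10 genes, 7 had a log2 fold change above 0 (5 when libraries were scaled by size only and 4 without Lztr1 R409C/+ replicate 3), beside 51.4% of all genes tested. Their median log2 fold change of Lztr1 R409C/+ over WT mice was 0.071, and that of all genes tested was 0.012. Without both libraries that stood apart, the median of the 10 genes was 0.15, and their log2 fold changes were -0.11 for *Kdr*, 0.028 for *Flt1*, 0.12 for *Tek*, 0.17 for *Tie1*, 0.24 for *Eng*, 0.090 for *Pecam1*, 0.046 for *Cdh5*, 0.22 for *Emcn*, 0.91 for *Vwf*, and 0.32 for *Egfl7*. The smallest adjusted p among the 10 genes was 0.535 in edgeR, and two-sided exact permutation tests of single genes gave p-values from 0.3 to 0.9 for the 9 genes other than *Emcn*. Only in *Emcn* did the 3 values of one genotype lie wholly apart from those of the other, a pattern seen in 15.5% of all genes tested (8.3% higher and 7.23% lower in Lztr1 R409C/+ mice). The standard errors of the 10 log2 fold changes lay between 0.15 and 0.33, and the median width of their 95% confidence intervals was 0.84.

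**Figure D1:**
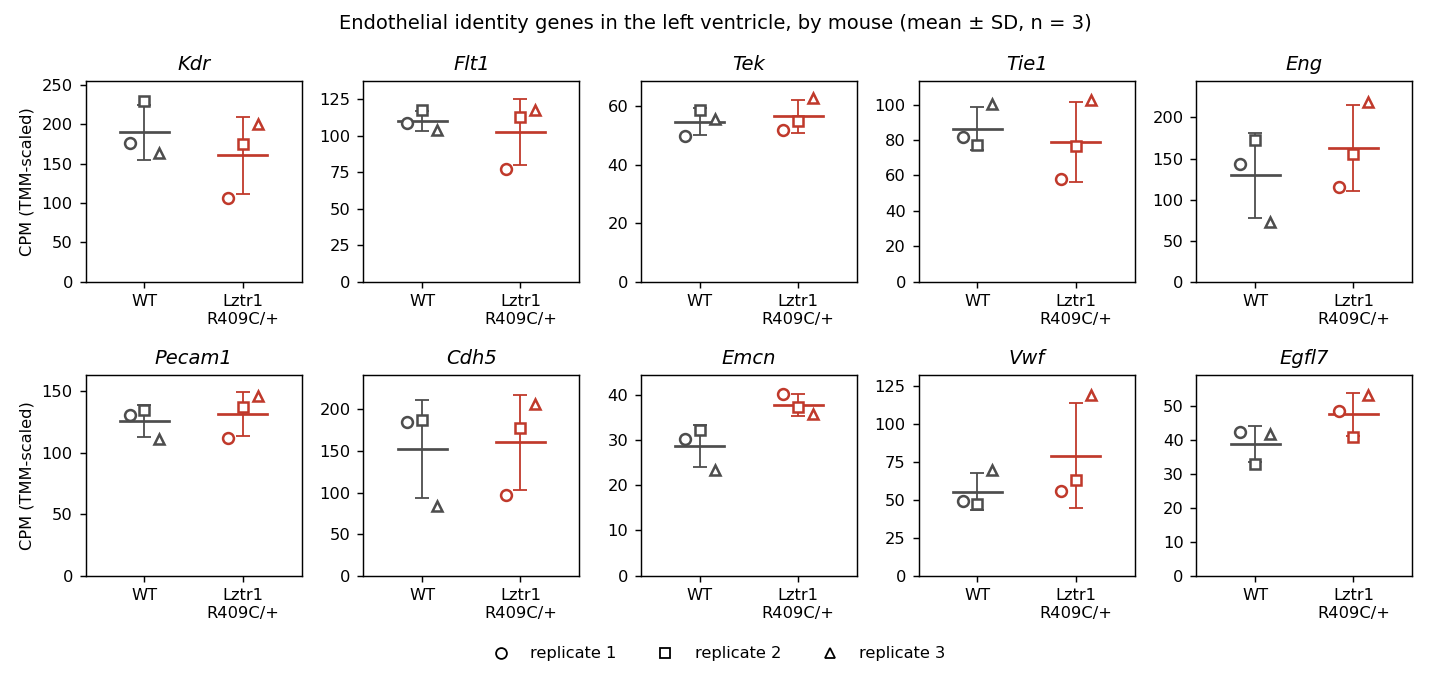
Level of each endothelial identity gene in CPM scaled by TMM (vertical axes, linear from 0) in the 3 WT (grey) and 3 Lztr1 R409C/+ mice (red); symbols are mice, horizontal lines are means, and bars are SDs. The groups overlap in every panel except that of *Emcn*, where the WT mice lie between 23.4 and 32.3 CPM and the Lztr1 R409C/+ mice between 35.7 and 40.3 CPM.

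The receptors for vascular endothelial growth factors come first. The 250 bases before their RefSeq start sites are shown because ETS factors, which act at many endothelial promoters, bind a GGAA core, and the capitals mark each GGAA on the printed strand and each TTCC, its reverse complement. The windows lie on the minus strand of the GRCm38.p6 build at chr5:75978456-75978705 for *Kdr* and at chr5:147726012-147726261 for *Flt1*, a build that differs from the GRCm39 build of the counts.
*Kdr*: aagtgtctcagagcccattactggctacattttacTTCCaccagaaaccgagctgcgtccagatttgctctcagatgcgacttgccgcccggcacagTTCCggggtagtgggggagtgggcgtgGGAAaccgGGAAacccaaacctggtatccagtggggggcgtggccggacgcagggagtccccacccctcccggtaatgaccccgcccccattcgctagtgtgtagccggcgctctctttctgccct
*Flt1*: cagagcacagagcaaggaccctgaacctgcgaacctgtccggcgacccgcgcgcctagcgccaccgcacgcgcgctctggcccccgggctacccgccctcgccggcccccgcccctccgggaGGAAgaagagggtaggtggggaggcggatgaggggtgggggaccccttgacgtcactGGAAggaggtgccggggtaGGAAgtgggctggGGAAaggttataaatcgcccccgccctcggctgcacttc
Each window holds 4 such matches. Among the 32851 promoter windows of the RefSeq table, 93.4% hold at least 1 match in these 250 bases, with a median of 3, so a match alone does not set a promoter apart. Windows were found for 7 of the 10 genes and hold between 1 and 7 matches.

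*Kdr* (ENSMUSG00000062960.11; GRCm39 chr5:76093487-76139884, minus strand) encodes VEGFR2, the main signalling receptor for VEGF-A in endothelium. Its levels were 177, 230.1, and 164 CPM in WT replicates 1, 2, and 3, compared with 106, 175, and 201 CPM in the same order of Lztr1 R409C/+ mice. The lowest value belonged to Lztr1 R409C/+ replicate 1 and the highest to WT replicate 2, and the groups overlapped. The means were 190.4 ± 35.0 CPM (SD, n = 3) in WT and 161 ± 49.0 CPM (SD, n = 3) in Lztr1 R409C/+ mice. The log2 fold change was -0.24 with a standard error of 0.23 and a 95% interval of -0.74 to 0.25, which did not pass the edgeR test (adjusted p = 0.811). *Kdr* had a log2 fold change below 0 in all 20 alternative analyses, and it ranged from -0.44 without Lztr1 R409C/+ replicate 3 to -0.025 without Lztr1 R409C/+ replicate 1.

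*Flt1* (ENSMUSG00000029648.14; chr5:147498414-147662826, minus strand) encodes VEGFR1, which binds VEGF-A and limits what reaches VEGFR2. Its levels were 109, 117, and 104 CPM in WT versus 76.8, 113, and 118 CPM in Lztr1 R409C/+ mice. As with *Kdr*, Lztr1 R409C/+ replicate 1 was the lowest mouse, and the other 5 mice lay within a narrow range. A log2 fold change of -0.10 was fitted (SE 0.18, 95% interval -0.50 to 0.29, adjusted p = 0.914 by the edgeR test), which became 0.060 without that mouse. The *Flt1* to *Kdr* ratio of counts within a mouse, which does not depend on how libraries are scaled, was 0.614, 0.510, and 0.631 in WT versus 0.722, 0.643, and 0.586 in Lztr1 R409C/+ mice. The ratios overlapped, and their log2 difference of 0.15 did not pass a two-sided exact permutation test (p = 0.4).

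*Tek* (ENSMUSG00000006386.16; chr4:94627291-94763224, plus strand) encodes TIE2, the receptor that angiopoietins bind. It had 49.6, 58.6, and 55.7 CPM in WT versus 51.7, 54.9, and 62.7 CPM in Lztr1 R409C/+ mice, replicate by replicate. WT replicate 3 and Lztr1 R409C/+ replicate 1, the mice of extreme mitochondrial share, both lay within the range of the other 4 mice, and the groups overlapped. Its log2 fold change was 0.047 (SE 0.15, 95% interval -0.28 to 0.38, adjusted p = 0.957 by the edgeR test). *Tie1* (ENSMUSG00000033191.15; chr4:118328385-118347261, minus strand) encodes the related receptor that pairs with TIE2 and binds no angiopoietin strongly by itself. Its levels were 81.8, 77.1, and 100.4 CPM in WT versus 57.9, 76.6, and 103 CPM in Lztr1 R409C/+ mice, so that replicate 3 of each group was high and Lztr1 R409C/+ replicate 1 was low. The log2 fold change of *Tie1* was -0.13 (SE 0.21, 95% interval -0.58 to 0.32, adjusted p = 0.901 by the edgeR test), and it was 0.17 when both mice with extreme mitochondrial shares were left out. Ratios of *Tie1* to *Tek* overlapped between the genotypes, at 1.32 to 1.80 in WT and 1.12 to 1.64 in Lztr1 R409C/+ mice (log2 difference -0.21, exact permutation p = 0.4).

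The partners of these receptors showed no common shift. The list held 33 genes for ligands, co-receptors, phosphatases, and the adaptors and SMAD proteins that act with the receptors, of which 30 were tested. Of these, 15 had a log2 fold change above 0 and 15 below 0, with a median of -0.0043 (0.021 without both libraries that stood apart, -0.15 to 0.058 over the 20 alternatives), and 0 passed the edgeR threshold in either direction. The count was 0 with DESeq2 and with the exact test too, and 1 gene had an unadjusted p under 0.05. It was *Dok2*, an adaptor that binds TIE2 and other tyrosine kinases, with 1.52 ± 0.483 CPM (SD, n = 3) in WT and 2.46 ± 0.343 CPM (SD, n = 3) in Lztr1 R409C/+ mice (log2 fold change 0.70, adjusted p = 0.574). The gene of this list with the next smallest p was *Smad5*, which carries BMP signals to the nucleus, with a log2 fold change of -0.38 (adjusted p = 0.618).

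For *Eng*, the upstream window lies on the plus strand of GRCm38.p6 at chr2:32646345-32646594 and is shown with the same capitals, of which it has 3 matches.
*Eng*: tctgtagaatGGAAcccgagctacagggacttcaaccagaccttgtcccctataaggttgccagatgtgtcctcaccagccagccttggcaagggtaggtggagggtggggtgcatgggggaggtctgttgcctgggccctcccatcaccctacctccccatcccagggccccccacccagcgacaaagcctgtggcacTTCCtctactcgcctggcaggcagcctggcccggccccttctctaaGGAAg
*Eng* (ENSMUSG00000026814.17; GRCm39 chr2:32535543-32574661, plus strand) was among the least even of the 10 genes across mice. It had 143, 173, and 72.4 CPM in WT versus 115, 155, and 219 CPM in Lztr1 R409C/+ mice, replicate by replicate. WT replicate 3 was the lowest and Lztr1 R409C/+ replicate 3 the highest, and the remaining 4 mice of both genotypes intermixed. Mean *Eng* levels were 129.6 ± 51.7 CPM in WT and 163 ± 52.3 CPM in Lztr1 R409C/+ mice (SD, n = 3 each), with a log2 fold change of 0.33 (SE 0.31, 95% interval -0.35 to 1.01, adjusted p = 0.808 by the edgeR test). Without WT replicate 3 it was 0.043, and without Lztr1 R409C/+ replicate 3 it was 0.062, whereas it was 0.60 without WT replicate 2. Of the exon bases of *Eng*, 11.03% are shared with *Fpgs* on the opposite strand. Whether the counting used strand is not given in the sources used here, so reads on those bases cannot be assigned to one gene with certainty. *Fpgs* had 247 to 422 counts per mouse and *Eng* 6385 to 15866, and the part of *Fpgs* in the *Eng* counts was not tested.

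The junctional pair differed in spread. *Pecam1* (ENSMUSG00000020717.20; chr11:106543689-106641454, minus strand), which encodes CD31, had 131, 135, and 111 CPM in WT versus 112, 137, and 146 CPM in Lztr1 R409C/+ mice, replicate by replicate. WT replicate 3 and Lztr1 R409C/+ replicate 1 had nearly the same level and were the lowest of the 6 mice, and the log2 fold change was 0.065 (SE 0.16, 95% interval -0.29 to 0.42, adjusted p = 0.944 by the edgeR test). *Cdh5* (ENSMUSG00000031871.10; chr8:104828231-104871143, plus strand) had 185, 187, and 84.0 CPM in WT versus 97.0, 177, and 207 CPM in Lztr1 R409C/+ mice. The same 2 mice that were low for *Pecam1* were low for *Cdh5*, 1 in each genotype, and both stood well below the other 4 mice. Means of *Cdh5* were 152 ± 58.9 CPM and 160.3 ± 56.8 CPM (SD, n = 3 each), and its log2 fold change was 0.077 with the widest interval of the 10 genes, -0.67 to 0.82 (SE 0.33, adjusted p = 0.968 by the edgeR test). It was -0.21 without WT replicate 3, 0.33 without Lztr1 R409C/+ replicate 1, and 0.046 without both. The *Cdh5* to *Pecam1* ratio was 0.754 in WT replicate 3 and 0.869 in Lztr1 R409C/+ replicate 1 and lay between 1.29 and 1.42 in the other 4 mice. The low ratios therefore fell on the mice with the lowest and the highest mitochondrial share and on both genotypes, and the part of RNA quality in them was not tested. Between genotypes the log2 ratio differed by 0.036 (exact permutation p = 0.8).

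*Emcn* was the gene whose genotypes separated, and its upstream window on the plus strand of GRCm38.p6 at chr3:137340828-137341077 is shown with its 4 matches.
*Emcn*: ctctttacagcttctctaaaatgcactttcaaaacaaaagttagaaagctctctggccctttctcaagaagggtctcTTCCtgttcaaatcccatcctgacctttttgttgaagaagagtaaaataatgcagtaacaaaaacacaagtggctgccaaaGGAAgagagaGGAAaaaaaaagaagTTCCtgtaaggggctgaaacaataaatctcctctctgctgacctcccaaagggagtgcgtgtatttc
*Emcn* (ENSMUSG00000054690.18; GRCm39 chr3:137046794-137138999, plus strand) marks capillary and venous endothelium more than arterial endothelium. It had 30.2, 32.3, and 23.4 CPM in WT versus 40.3, 37.3, and 35.7 CPM in Lztr1 R409C/+ mice, replicate by replicate. Every Lztr1 R409C/+ mouse lay above every WT mouse, a pattern seen in 8.3% of all genes tested. Among the Lztr1 R409C/+ mice replicate 1 was the highest and replicate 3 the lowest, whereas replicate 3 was the highest of this group for each of the other 9 genes. Mean *Emcn* levels were 28.7 ± 4.64 CPM in WT and 37.8 ± 2.33 CPM in Lztr1 R409C/+ mice (SD, n = 3 each), a fitted 1.32-fold difference. It had a log2 fold change of 0.40 with a standard error of 0.16 and a 95% interval of 0.043 to 0.76. Its unadjusted p was 0.0311 and its adjusted p 0.535 by the edgeR test, and the two-sided exact permutation test gave p = 0.1, the smallest that 3 mice against 3 allow. Of all genes tested, 5.77% were higher at an unadjusted p under 0.05 in edgeR. In the 20 alternatives the log2 fold change stayed between 0.22 and 0.49 and the adjusted p between 0.457 and 0.976. Without both mice of extreme mitochondrial share it was 0.22 with an unadjusted p of 0.141 in edgeR. The unadjusted edgeR p was also above 0.05 with library size only (0.405) and with a GC correction without (0.0917) and with a replicate block (0.113). It was 0.0553 with a length correction and replicate block. Leaving out 1 mouse brought it above 0.05 for WT replicates 1 (0.0543) and 3 (0.105) and for Lztr1 R409C/+ replicates 1 (0.0798) and 2 (0.0659). Set against *Pecam1* within each mouse, *Emcn* counts gave ratios of 0.231, 0.239, and 0.210 in WT versus 0.361, 0.272, and 0.245 in Lztr1 R409C/+ mice, again without overlap. The log2 difference of this ratio was 0.35 (exact permutation p = 0.1, adjusted p = 0.5 over 5 ratios), and the largest ratio belonged to Lztr1 R409C/+ replicate 1.

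**Figure D2:**
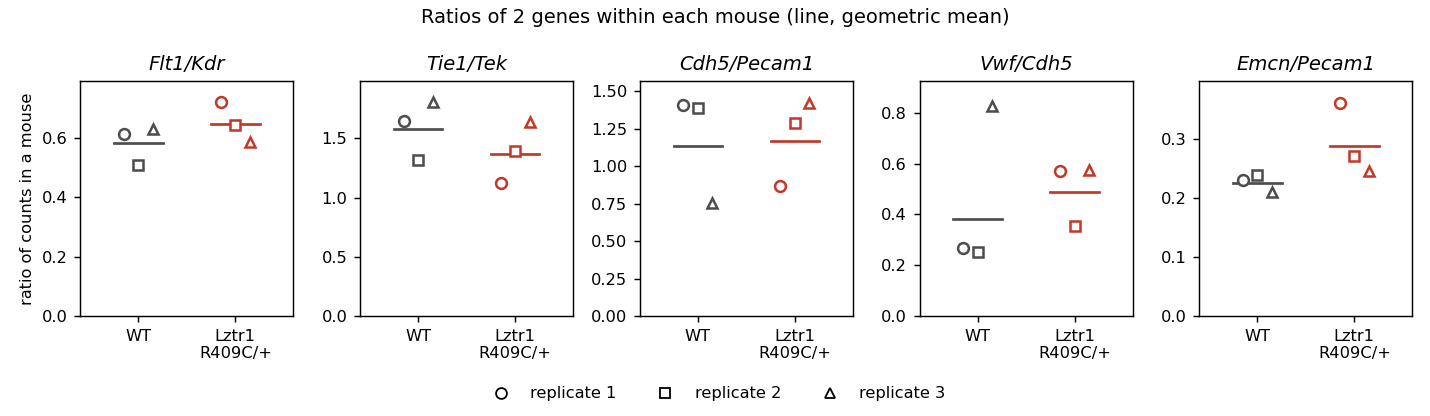
Ratio of the counts of a pair of endothelial identity genes within each mouse (vertical axes, linear from 0), for 3 WT (grey) and 3 Lztr1 R409C/+ mice (red); symbols are mice and lines are geometric means. The groups are apart for *Emcn*/*Pecam1* alone, and *Cdh5*/*Pecam1* is low, at 0.754 and 0.869, in 1 mouse of each genotype.

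*Vwf* (ENSMUSG00000001930.18; chr6:125523737-125663642, plus strand) is made by endothelium of larger vessels and endocardium in particular and by megakaryocytes. It had 49.2, 47.4, and 69.5 CPM in WT versus 55.5, 62.6, and 119 CPM in Lztr1 R409C/+ mice, replicate by replicate. Lztr1 R409C/+ replicate 3 stood far above the other 5 mice, which overlapped between the genotypes. Mean *Vwf* levels were 55.3 ± 12.3 CPM in WT and 78.9 ± 34.5 CPM in Lztr1 R409C/+ mice (SD, n = 3 each). The log2 fold change of 0.51 was the largest of the 10 genes but was not past the threshold (SE 0.27, 95% interval -0.076 to 1.10, unadjusted p = 0.082, adjusted p = 0.630 by the edgeR test). Without Lztr1 R409C/+ replicate 3 it was 0.093, with an unadjusted p of 0.641 in edgeR. Without WT replicate 3 and Lztr1 R409C/+ replicate 1, the libraries of extreme mitochondrial share, it was 0.91 (edgeR, unadjusted p = 0.0103, adjusted p = 0.405). The *Vwf* to *Cdh5* ratio of counts was highest in WT replicate 3 at 0.827, 0.253 and 0.266 in the other WT mice, and between 0.353 and 0.573 in Lztr1 R409C/+ mice. It overlapped between genotypes, with a log2 difference of 0.35 (exact permutation p = 0.8).

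Markers of other cells and regions were read beside *Vwf*. The summed level of 8 endocardium markers was 125, 114, and 158 CPM in WT versus 161, 129.9, and 199.99 CPM in Lztr1 R409C/+ mice, replicate by replicate. It was thus highest in Lztr1 R409C/+ replicate 3, and the list had a median log2 fold change of 0.52 (0.77 without both libraries that stood apart, 0.25 to 0.77 over the alternatives), with 7 of 8 genes above 0, 0 past the edgeR threshold, and 3 at an unadjusted p under 0.05. DESeq2 and the exact test each called 2 of the 8, *Plvap* and *Tmem108*. Over all genes tested, 5.77% were higher at an unadjusted p under 0.05 in edgeR, and DESeq2 called 0.872% and the exact test 0.813%. The 5 mesothelium markers, of the outer heart surface, summed to 9.81 CPM in Lztr1 R409C/+ replicate 3 and to between 4.77 and 6.71 CPM in the other 5 mice. Their median log2 fold change was 1.58 (2.47 without both libraries that stood apart, 0.80 without Lztr1 R409C/+ replicate 3), with 3 genes above 0 and 2 below. Of the 5, 0 were called by edgeR, 1 by DESeq2 and by the exact test, and 3 had an unadjusted p under 0.05. This median rests on low counts. The 2 mesothelium genes with the smallest unadjusted edgeR p were *Upk3b*, with 11 to 68 counts in WT and 56 to 174 in Lztr1 R409C/+ mice, and *Lrrn4*, with 7 to 12 and 14 to 79. Of the 10 platelet and megakaryocyte markers, 5 passed the filter, and the list summed to between 7.04 and 14.8 CPM in WT and between 13.2 and 17.8 CPM in Lztr1 R409C/+ mice. Of the 5 platelet markers tested, 4 were above 0, with a median of 0.21 (0.82 without both libraries that stood apart, -0.21 without WT replicate 1), 0 called by any of the 3 tools and 1 at an unadjusted p under 0.05. Their sum was lower in Lztr1 R409C/+ replicate 3, at 13.2 CPM, than in replicates 1 and 2. The part of these tissues in the *Vwf* values was not tested.

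*Egfl7* (ENSMUSG00000026921.21; chr2:26468286-26486789, plus strand) had 42.4, 32.8, and 41.7 CPM in WT versus 48.5, 40.9, and 53.3 CPM in Lztr1 R409C/+ mice, replicate by replicate. The genotypes overlapped only through Lztr1 R409C/+ replicate 2, which lay below WT replicates 1 and 3. Its log2 fold change was 0.29 (SE 0.17, 95% interval -0.074 to 0.65, adjusted p = 0.666 by the edgeR test) and lay between 0.12 and 0.38 in the 20 alternatives. An intron of *Egfl7* is known as the source of the endothelial microRNA miR-126. Its RefSeq mature 3p sequence, at chr2:26591402-26591423 on the plus strand of GRCm38.p6, is shown with the seed, bases 2 to 8, in capitals.
mmu-miR-126a-3p: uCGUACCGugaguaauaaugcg
The gene of its precursor, *Mir126a*, was listed at 1 count in every mouse, and no level is given for it. In the annotation used here, *Mir126a* shares 73 bases with annotated exons of *Egfl7* on the same strand. On the opposite strand *Agpat2* shares 13.6% of the exon bases of *Egfl7*. *Agpat2* had 1501 to 1630 counts in WT and 1575 to 2180 counts in Lztr1 R409C/+ mice, and with strand use not stated, its part in the *Egfl7* counts was not tested.

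For 8 of the 10 genes, all but *Emcn* and *Egfl7*, the genotype means differed by less than the larger of the 2 SDs. Lztr1 R409C/+ replicate 3 was above the 6-mouse mean for all 10 genes and was the highest mouse for 8 of them. Lztr1 R409C/+ replicate 1, in contrast, was below the mean for 8 genes and the lowest mouse for 3, and WT replicate 3 was below the mean for 7 and the lowest for 4. The mean log2 CPM of the 10 genes, centred on the 6 mice, was -0.015, 0.051, and -0.21 in WT versus -0.25, 0.066, and 0.36 in Lztr1 R409C/+ mice, replicate by replicate. The group means of this score were -0.058 ± 0.14 and 0.058 ± 0.31 (SD, n = 3 each), so that their difference was smaller than the SD within the Lztr1 R409C/+ group. As a share of all counts, the 10 genes took 0.0918%, 0.0987%, and 0.115% in WT versus 0.0609%, 0.101%, and 0.138% in Lztr1 R409C/+ mice. With mitochondrially encoded RNA left out of the total, the shares were 0.145%, 0.157%, and 0.133% in WT versus 0.112%, 0.156%, and 0.197% in Lztr1 R409C/+ mice.

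**Figure D3:**
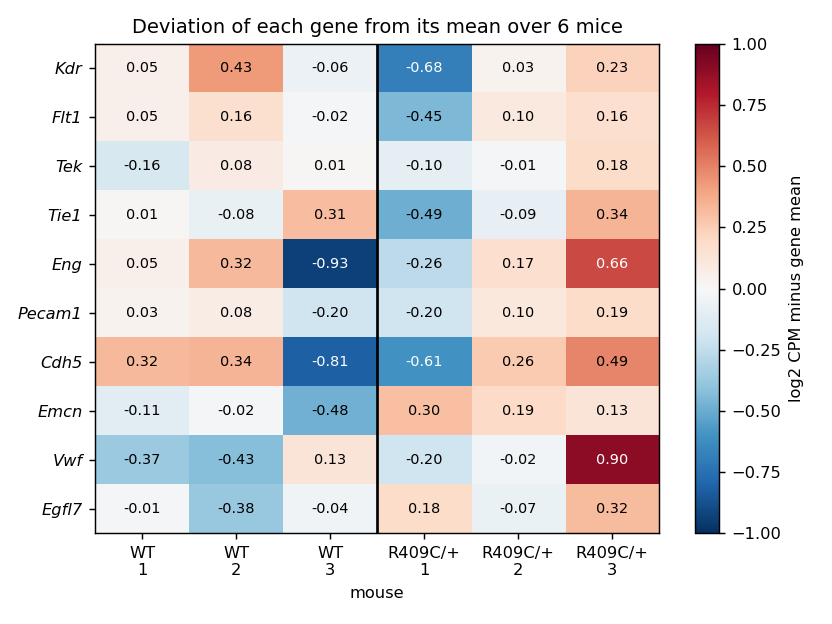
Log2 CPM of each endothelial identity gene minus its mean over the 6 mice (rows are genes, columns are mice by genotype and replicate; red is above the mean and blue below). Lztr1 R409C/+ replicate 3 is red in all 10 rows, whereas *Eng* and *Cdh5* are at their lowest in WT replicate 3.

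The 10 genes were also compared pair by pair across the mice. Of the 45 pairs, 38 had a Pearson correlation of log2 CPM above 0, with a median of 0.343 and a range from -0.634 to 0.966 over 6 mice. Both genes of a pair were read from the same libraries, whose depth, RNA quality, and scaling bear on both, and pairs of other genes were not examined. The pairs with the highest correlations were *Pecam1* with *Cdh5* (0.966), *Kdr* with *Flt1* (0.965), *Eng* with *Cdh5* (0.920), and *Eng* with *Pecam1* (0.911), and these are descriptions of these 6 libraries only. *Pecam1* followed the mean pattern of the 10 genes most closely, at a mean absolute distance of 0.057 on the log2 scale, and *Tek* and *Flt1* came next at 0.13 each.

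Levels of different genes were compared per kilobase of exon. In WT mice, *Cdh5* had the highest level at 34.7 ± 13.4 CPM per kilobase (SD, n = 3), followed by *Kdr* at 20.7 ± 3.80, *Tie1* at 17.3 ± 2.46, *Eng* at 16.6 ± 6.64, and *Pecam1* at 12.6 ± 1.26. Each of these 5 genes overlapped its neighbour in the order over the 3 mice. *Tek* at 9.10 ± 0.762 and *Flt1* at 8.04 ± 0.509 CPM per kilobase came next and overlapped each other. The range of *Tek* lay below that of *Pecam1*, but it took in the *Eng* level of WT replicate 3, which was 9.29 CPM per kilobase. *Egfl7* at 4.87 ± 0.664, *Emcn* at 4.34 ± 0.704, and *Vwf* at 3.31 ± 0.734 CPM per kilobase formed the lowest group. This order rests on the length used, which was that of all annotated exons of a gene together. Per kilobase of the median transcript, *Eng* came first at 42.0 CPM per kilobase and *Tek* last at 11.7, and *Vwf* rose from the last place to the fifth, at 30.6. Among all genes tested, the mean log2 CPM of the 10 genes lay between the percentiles 79.9 for *Emcn* and 97.0 for *Kdr*.

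**Figure D4:**
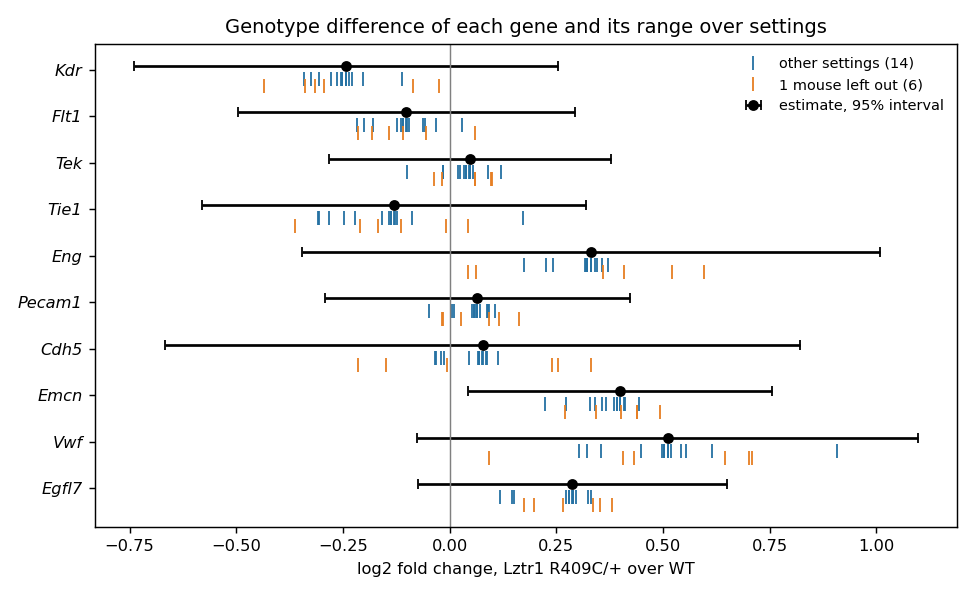
Log2 fold change of Lztr1 R409C/+ over WT mice for each endothelial identity gene (horizontal axis, 0 is no difference), with the edgeR estimate as a point, its 95% confidence interval as a bar, and 20 alternative estimates as ticks (blue, other settings; orange, 1 mouse left out). *Emcn* is the gene whose interval leaves out 0, at 0.043 to 0.76, and the ticks of *Cdh5*, from -0.21 to 0.33, fall on both sides of 0. Of all genes tested, 8.63% had an unadjusted p under 0.05 in edgeR. Without both mice of extreme mitochondrial share, the unadjusted edgeR p of *Emcn* was 0.141.

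Genes that act upstream of these identity genes were described in the same way. Endothelial transcription factors, such as the ETS, SOX, and Forkhead factors that drive the identity program, were represented by 23 genes, of which 22 were tested and *Etv2*, a factor of the embryonic endothelium, was at 0 in every mouse. Of the 22, 16 had a log2 fold change above 0 and 6 below 0, with a median of 0.12 (0.14 without both libraries that stood apart, -0.0056 with library size only) and 0 past the threshold with edgeR, DESeq2, or the exact test, and 1 had an unadjusted p under 0.05. This was *Foxc1*, a Forkhead factor of endocardium and vessels, with 4.17 ± 0.669 CPM in WT and 6.32 ± 0.767 CPM in Lztr1 R409C/+ mice (SD, n = 3 each; log2 fold change 0.60, adjusted p = 0.490 by the edgeR test). *Foxo1*, which restrains endothelial growth, had a log2 fold change of -0.35 (adjusted p = 0.629). Of the 12 genes of Notch signalling in vessels, 3 were above 0 and 9 below 0, with a median of -0.064. This median changed sign with the mice used, at 0.12 without both libraries that stood apart and 0.025 without Lztr1 R409C/+ replicate 1, and it was -0.23 with library size only. None was called by edgeR, DESeq2, or the exact test, and 0 had an unadjusted p under 0.05. *Jag1*, a Notch ligand, had 14.3 ± 2.41 CPM in WT and 11.03 ± 1.01 CPM in Lztr1 R409C/+ mice without overlap (SD, n = 3 each; log2 fold change -0.38, adjusted p = 0.599 by the edgeR test). *Hes1*, a Notch target, had a log2 fold change of 0.36 (adjusted p = 0.704).

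Markers of the other cells of the ventricle were set beside the endothelial identity genes. All 10 cardiomyocyte markers were tested, and they summed to between 56622 and 60414 CPM in WT and between 40729 and 55358 CPM in Lztr1 R409C/+ mice, with 3 genes above 0, 7 below 0, and a median log2 fold change of -0.23 (-0.17 without both libraries that stood apart, -0.39 with library size only). The sums did not overlap but rest on the most abundant genes. The mean centred log2 CPM of the markers, which weights the genes equally, did overlap, at 0.014 to 0.17 in WT and -0.26 to 0.092 in Lztr1 R409C/+ mice, and 2 of the 10 markers, both lower, did not overlap, beside 7.23% of all genes tested. The lowest sum was in Lztr1 R409C/+ replicate 1, the mouse in which *Kdr*, *Flt1*, and *Tie1* were lowest. Pericyte and smooth muscle markers summed to between 1001 and 1293 CPM in WT and between 964 and 1214 CPM in Lztr1 R409C/+ mice, with 4 of 10 above 0 and a median of -0.11 (-0.013 without both libraries that stood apart, 0.027 without Lztr1 R409C/+ replicate 1). Fibroblast markers summed to between 1499 and 1959 CPM and between 1343 and 1954 CPM, with 5 of 9 above 0 and a median of 0.12 (0.37 without both libraries that stood apart, -0.060 with library size only). None of these 3 lists had a gene called by edgeR, DESeq2, or the exact test, and they had 0, 2, and 3 genes, respectively, at an unadjusted p under 0.05. The 2 pericyte and smooth muscle genes were lower and the 3 fibroblast genes higher in Lztr1 R409C/+ mice, each without overlap. Over all genes tested, 7.23% were lower and 8.3% higher without overlap.

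Among markers of immune and blood cells, all 10 macrophage markers were above 0, with a median log2 fold change of 0.996 (0.75 without both libraries that stood apart). Of these markers, 9 had an unadjusted p under 0.05 and 9 did not overlap between the genotypes, beside 5.77% and 8.3% of all genes tested that were higher in the same sense, and 2 rose past the edgeR threshold, *C1qc* (log2 fold change 1.19, adjusted p = 0.0241) and *C1qb* (1.15, adjusted p = 0.0241), which encode subunits of complement C1q. These calls were lost when any 1 mouse was left out (adjusted p from 0.0567 to 0.192 in edgeR), without both libraries that stood apart (0.110 and 0.167), and with a replicate block (0.173 for both). Over the 20 alternatives *C1qc* was called in 8 and *C1qb* in 9, with log2 fold changes from 1.01 to 1.24. DESeq2 called 5 and the exact test 4 of these 10 markers, beside 0.872% and 0.813% of all genes tested. The macrophage markers summed to between 229 and 267 CPM in WT and between 389 and 490.2 CPM in Lztr1 R409C/+ mice. *Pecam1* is also expressed by macrophages and platelets, and its log2 fold change of 0.065 stood beside this difference. The 8 lymphocyte and neutrophil markers tested of 12 had a median of 1.44 (0.83 without both libraries that stood apart), with 7 above 0, 0 called by any of the 3 tools, and 2 at an unadjusted p under 0.05. Of the 8, 5 did not overlap between the genotypes, all higher, beside 8.3% of all genes tested. The list summed to between 1.77 and 3.11 CPM in WT and between 4.53 and 5.22 CPM in Lztr1 R409C/+ mice, with *Ly6g* at 0 throughout. The 6 erythroid markers tested of 8 were all above 0, with a median of 0.993 (1.11 without both libraries that stood apart, 1.55 without WT replicate 3) and sums of 579 to 1479 CPM in WT and 1043 to 2626 CPM in Lztr1 R409C/+ mice, 0 called by edgeR or the exact test, 1 by DESeq2, and 3 at an unadjusted p under 0.05. The 5 adipocyte markers did not pass the filter and summed to at most 0.636 CPM. The part of blood cells in the levels of the endothelial identity genes was not tested.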

How the data were processed

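RNA was measured in 6 LVs, 3 per genotype, and the genotypes and replicate numbers were taken from the sample labels. The authors trimmed reads with Trim Galore, aligned them to GRCm39 with HISAT2, removed rRNA reads, and used StringTie, and the deposited table gives raw whole-number counts for each gene. The annotation release, the counting step, and strand use are not given in the sources used here. A second deposited table holds the authors' own edgeR comparison (log2 fold changes, average log2 CPM, p-values, and adjusted p-values), of which only identifiers and names were used.

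The counts were fitted with edgeR 4.0.16 under R 4.3.3 (filterByExpr, TMM, robust quasi-likelihood test, two-sided, Benjamini-Hochberg adjustment over 17212 genes, threshold 0.05). CPM used TMM-scaled library sizes. Single genes and ratios were also compared with exact permutation tests, whose smallest p is 0.1 for 3 mice against 3. Each library came from 1 mouse, and p-values measure only the spread between these mice. The common biological coefficient of variation was 26.1%. Counting floors cover counting error only. Positions, exon lengths, and GC content were taken from the GENCODE annotation of GRCm39, and promoter and microRNA sequences from RefSeq tables of GRCm38.p6, in which windows for 7 of the 10 genes were found. The fits were tested on simulated data.

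By the naming rule, the genes that could be named were all 10 endothelial identity genes, the 2 genes of each other list with the smallest unadjusted p, every list gene past the threshold, and the 5 genes with the most similar pattern over the 6 mice. Outside this rule, *Etv2* and *Ly6g*, which had no counts, and *Fpgs*, *Agpat2*, and *Mir126a*, which overlap an identity gene, were also named. Of the markers of other cell types, most that the rule allows are not named in the text and only their lists are described. The members and lists were chosen with earlier results of these data known. Alternatives were DESeq2 1.42.0 and edgeR's exact test, other normalizations and filters, removal of mitochondrially encoded genes, a replicate block, gene length and GC corrections, and omission of mice. The GC corrections were added after the data were seen. Samples with the same replicate number did not deviate together, so the replicates were treated as unpaired.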

Additional observations from a re-analysis of the deposited data

How the results depend on the processing

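None of the 10 endothelial identity genes passed the threshold in any of the 20 alternatives, and 181 of their 200 values kept their direction. *Kdr* stayed below 0 and *Eng*, *Emcn*, *Vwf*, and *Egfl7* above 0 in all 20. The log2 fold change of *Flt1* became 0.028 without both mice of extreme mitochondrial share and ranged from -0.21 to 0.060 with 1 mouse left out. That of *Tie1* became 0.17 without both mice and ranged from -0.36 to 0.043. That of *Tek* became -0.10 with library size only and -0.015 with a length correction, with or without a replicate block, and ranged from -0.036 to 0.099. That of *Pecam1* became -0.049 with library size only and ranged from -0.017 to 0.16. That of *Cdh5* became -0.033 with a length correction, -0.020 with this and a replicate block, -0.031 with a GC correction, and -0.012 with GC correction and block, and ranged from -0.21 to 0.33. The cause was not tested. Library size only moved the median of all genes to -0.14 and that of the 10 genes to 0.010. The number of the 10 genes above 0 was 4 without Lztr1 R409C/+ replicate 3 and 4 to 9 with 1 mouse left out, and their median -0.025 to 0.21.

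Over all genes, 6 were higher as reported, 15 with library size only, 19 without a filter, 136 with DESeq2, 127 with the exact test, 3 with a length correction, 0 with a replicate block, with block and length correction, and without both extreme mice, 1 with block and GC correction, and 1 to 3 with 1 mouse left out. 1 was lower as reported, 6 with library size only, 0 with at least 10 counts in every mouse, 14 with DESeq2, 13 with the exact test, 2 with a GC correction, and 1 to 2 with 1 mouse left out. The replicate block changed no call among the 10 genes. The same-number correlations of deviations were -0.0013, 0.022, and -0.057. With 3 mice per genotype, these values cannot decide whether mice of the same number shared a batch. Per-kilobase ranks moved for 8 of 10 genes with the median transcript length. With 3 mice per genotype, the intervals given limit what can be said of small differences.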

Other observations

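Genes of endothelial function other than the 10 identity genes were read from the same fit. Of 42 further genes of endothelial function, 30 had a log2 fold change above 0 and 12 below 0, with a median of 0.12, and 7 had an unadjusted p under 0.05, all higher in Lztr1 R409C/+ mice, while 0 passed the edgeR threshold. Over all genes tested, 51.4% were above 0, and 5.77% were higher at an unadjusted p under 0.05. This median was -0.025 with library size only, 0.018 with a length correction, and 0.23 without both mice of extreme mitochondrial share. *Plvap*, which forms the diaphragms of fenestrae and caveolae, had 4.84, 5.42, and 7.73 CPM in WT versus 12.8, 9.66, and 27.3 CPM in Lztr1 R409C/+ mice, replicate by replicate. The groups did not overlap, and the log2 fold change was 1.46 (adjusted p = 0.230 in edgeR). *Gpihbp1*, which carries lipoprotein lipase to the capillary lumen, had 32.0, 29.9, and 19.0 CPM in WT versus 45.7, 48.8, and 40.7 CPM in Lztr1 R409C/+ mice (log2 fold change 0.74, adjusted p = 0.275 by edgeR). Every Lztr1 R409C/+ mouse was above every WT mouse for it, including Lztr1 R409C/+ replicate 1, in which *Kdr* and *Flt1* were lowest. DESeq2 and the exact test each called 1 gene of this list, *Plvap*, beside 0.872% and 0.813% of all genes tested.

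Markers of endothelial subtypes were described by list. Some lists share genes, which are then counted in each. *Gpihbp1* and *Fabp4* of the capillary list are also in the list of further endothelial genes, as is *Plvap* of the endocardium list. *Foxc1* is in the lists of transcription factors and endocardium markers, and *Jag1* is in the Notch and arterial lists. All of these but *Jag1* had an unadjusted p under 0.05 in edgeR and are counted so in both their lists. They are not the only shared genes. Of 11 capillary markers, 8 were above 0 with a median log2 fold change of 0.25 (0.097 with library size only, 0.15 with a length correction, 0.41 without both mice of extreme mitochondrial share). At an unadjusted p under 0.05 in edgeR there were 3 higher and 1 lower capillary gene, beside 5.77% higher and 2.86% lower of all genes tested. Among the 3 higher genes *Fabp4*, a fatty acid carrier, had 175 ± 24.96 CPM in WT and 251 ± 16.2 CPM in Lztr1 R409C/+ mice (SD, n = 3 each; log2 fold change 0.52, adjusted p = 0.398 by edgeR). Of 11 arterial markers, 4 were above 0 with a median of -0.065 (0.046 without both those mice, 0.026 without Lztr1 R409C/+ replicate 1, -0.21 with library size only), and 0 had an unadjusted p under 0.05. Of the 7 venous markers tested of 8, 6 were above 0 with a median of 0.24 (0.30 without both those mice, 0.43 without Lztr1 R409C/+ replicate 1, 0.062 with library size only), and 1 had an unadjusted p under 0.05. It was *Sele*, the adhesion molecule of activated endothelium, with 0.563 ± 0.261 CPM in WT and 1.67 ± 0.193 CPM in Lztr1 R409C/+ mice (SD, n = 3 each; log2 fold change 1.58, adjusted p = 0.275 by edgeR). Among the endocardium markers, *Tmem108* had 1.16 ± 0.201 CPM in WT and 3.38 ± 1.28 CPM in Lztr1 R409C/+ mice (SD, n = 3 each; log2 fold change 1.55, adjusted p = 0.215 by edgeR). Of 8 lymphatic markers, 5 were above 0 with a median of 0.15 (0.26 without both those mice, 0.033 with library size only). *Lyve1*, which macrophages of the heart also express, was higher at a log2 fold change of 0.77 (adjusted p = 0.215 by edgeR) and *Reln* lower at -0.85 (adjusted p = 0.463). edgeR called 0 genes of these lists in either direction, and DESeq2 and the exact test called *Plvap*, *Tmem108*, and *Lyve1*.

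The 5 genes whose centred log2 CPM lay closest to the mean pattern of the 10 identity genes over the 6 mice were *Slc43a2*, *Prkaca*, *Kirrel*, *Tbc1d9b*, and *Mark4*, at mean absolute distances of 0.031, 0.034, 0.034, 0.035, and 0.036. Each was closer to that mean than *Pecam1*, at 0.057. The 5 genes were picked as the closest, which favours this order, and *Pecam1* is itself part of the mean, so no conclusion is drawn from it.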
